A study of Mus musculus with 10 samples.

Results

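The genes named Tex (testis expressed), Tsga (testis specific gene) and Tcte (t-complex testis expressed) carry names that record where they were found, not what they do. The 42 genes described here were the features of the array with exactly 1 annotated symbol that began with Tex, Tsga or Tcte and a digit, out of 19661 genes with a single symbol and a level. They were 37 Tex, 3 Tsga and 2 Tcte genes, each measured by 1 feature, which averages probes along the transcript. Of 44 annotated features with such a symbol, 2 named Tcte3 together with other genes and held no value, so Tcte3 was not analysed here.

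Testis RNA of 5 wild-type animals (WT) was compared with that of 5 Crem-/- animals (KO), 1 mouse per Affymetrix Mouse Gene 1.0 ST array. The paper lists RNA integrity numbers for 5 adult KO and 5 adult WT mice, and every KO value lay above every WT value. The labels do not tie these mice to the arrays, and the part of RNA quality in the changes below was not tested. The mice of both groups were 8 weeks old, untreated, of a mixed 129Pas x C57Bl/J strain, and were killed at 7 am (0 h), when the lights came on. The Crem-/- mice carry a neomycin resistance gene inserted across both DNA-binding domains in all of their cells, not in germ cells alone, and their spermatids do not develop past the round stage. The labels give 4 batches: batch 2 held KO replicate 3 and WT replicates 1, 2 and 3, batch 4 held KO replicates 1, 4 and 5 and WT replicate 5, batch 1 held KO replicate 2 and batch 3 held WT replicate 4.

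Sperm are made in the seminiferous tubules in a fixed order: spermatogonia divide, spermatocytes pass through meiosis, and haploid round spermatids elongate, pack their chromatin and build an acrosome and a tail. CREM, which binds the cAMP response element TGACGTCA or the shorter TGACG within it, activates genes in round spermatids, shortly before their transcription ceases. The Tex genes span this whole course. Some serve meiosis or the silencing of transposons, some encode proteins of the sperm tail, and a few are used by most cell types.

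Levels are log2 values after RMA, in which a difference of 1 is a doubling, and a change is the KO mean minus the WT mean with the standard error (SE) of a limma fit over 25689 features. A gene was called changed at a limma adjusted p under 0.05. Array medians lay between 7.11 and 7.15. The targeted gene was read first: the level of Crem was 10.89, 11.04, 10.96, 10.93 and 10.94 in WT replicates 1 to 5 and 9.29, 9.29, 9.41, 9.01 and 9.18 in KO replicates 1 to 5, a change of −1.71 ± 0.07 with no overlap of the groups. How its probes lie to the inserted cassette was not checked. Of the 6 markers of spermatocytes 5 rose and 0 fell, but 2 rose when the arrays were centred on housekeeping genes, 3 with batch as a fixed block, 1 within batch 2 and 0 within batch 4. All 6 markers of elongated spermatids fell. The 6 markers of macrophages rose (median 0.60), as did the 4 measured markers of Leydig cells (median 0.57) and 3 of 7 of Sertoli cells. With the arrays centred on housekeeping genes 6, 3 and 2 of them rose. The macrophage median was 1.04 within batch 2 and 0.53 within batch 4. Of 6 markers of spermatogonia 2 rose and 1 fell, and of 5 markers of peritubular myoid cells 1 rose and 0 fell. The summed level of the elongated spermatid markers, added on the linear scale, was 56227 to 67174 in WT and 3270 to 7555 in KO. Round spermatid markers fell in 5 of 6. Of 5 measured epididymal markers, whose WT means lay between 5.15 and 7.43, 2 fell. Their part and that of the other cell types in the changes below was not tested.

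Of the 42 genes 19 (45.2%) fell in KO testis, 12 (28.6%) rose and 11 did not pass the test. Over all 19661 genes 13.2% fell and 31.1% rose, together 44.3%, and over all features 12.4% and 27.9%, together 40.3%. These calls rest on the deposited scaling, by which 2599 genes fell and 6106 rose. With the arrays centred on 9 measured housekeeping genes instead, 3398 genes fell and 3198 rose, and of the 42 genes 19 fell and 4 rose. That list includes B2m, itself higher by 0.81 ± 0.18 in KO, and without B2m in it 10 of the 42 rose. Most of the falls were large. They reached at least 1 in log2 in 16 genes, against 4.36% of all genes and 3.96% of all features, and at least 2 in 15 genes (35.7%), against 2.33% and 2.07%. A rise of at least 1 was found in Tsga13 alone among the 42 (2.38%), against 1.37% of all genes and 1.23% of all features. The median change was 0.02 over the 42 genes and 0.07 over all genes. WT and KO arrays were fully separate in 18 of the genes that fell and in 5 of those that rose (42.9% and 11.9% of the 42), against 10.7% and 22% of all genes (9.89% and 19.5% of all features). In RNA of whole testis, fewer cells of a type and less RNA per cell cannot be told apart.

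**Figure D1:**
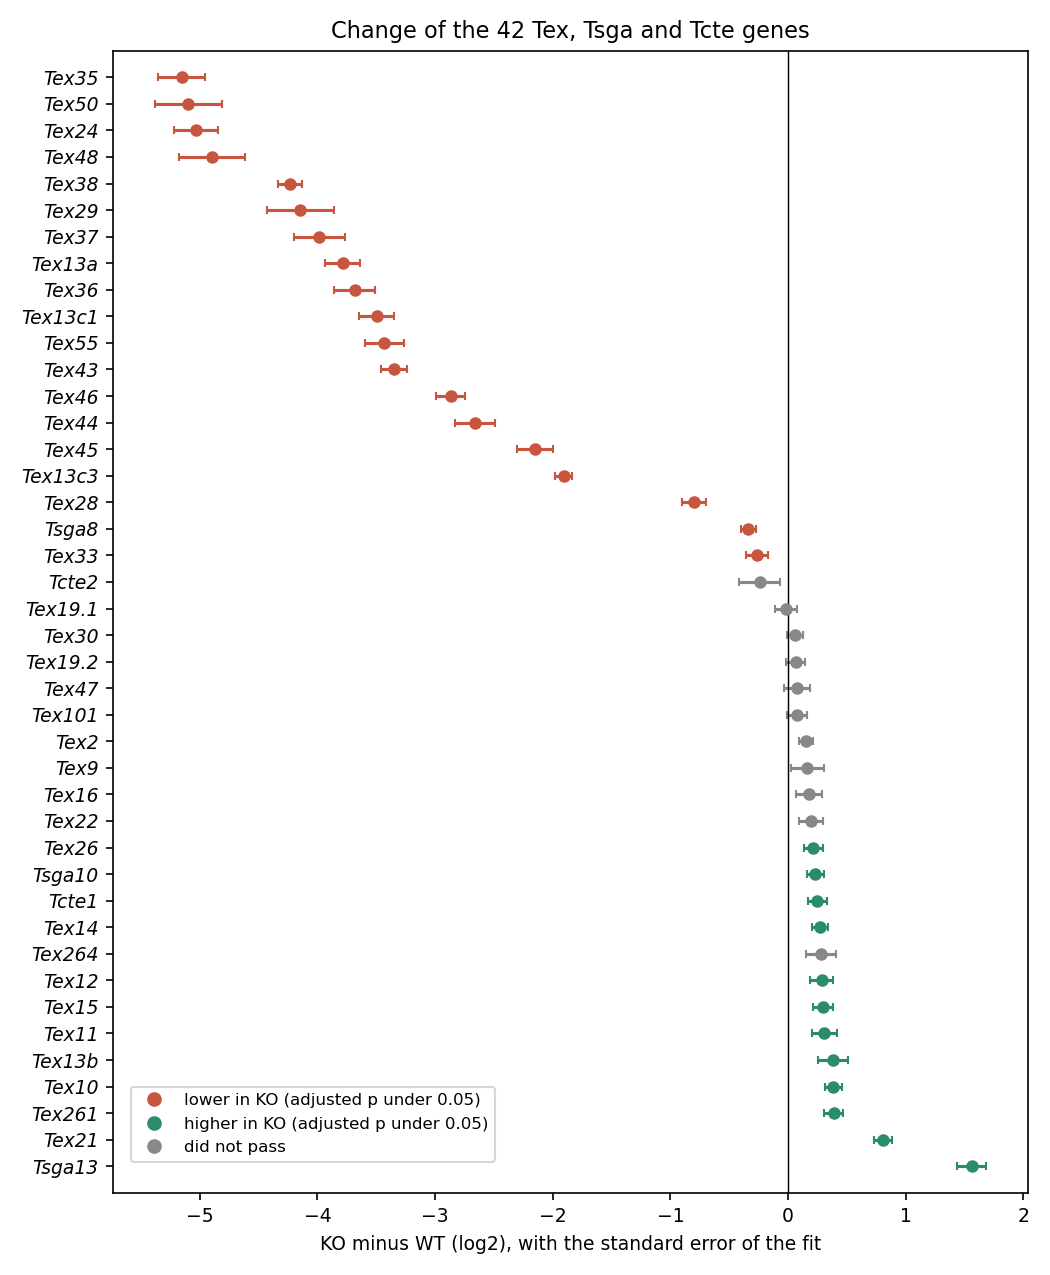
Change of each of the 42 genes, KO minus WT on the log2 scale (horizontal axis), with the standard error of the fit as bars; each gene is 1 row, ordered by its change, and colours mark genes lower, higher or not called at an adjusted p under 0.05. Of these genes 16 lie at −1.91 or below, the next lies at −0.80, and all but 2 of the others lie between −0.34 and 0.39.

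The largest falls stood apart from the other falls. They ran from Tex35 at −5.15 to Tex13c3 at −1.91, and Tex28 stood next at −0.80. The remaining falls of Tsga8 (−0.34 ± 0.06) and Tex33 (−0.26 ± 0.09) were of the size of the smaller rises. Of the 13 genes numbered Tex33 to Tex55, 12 fell, 11 of them by at least 2, against 13.2% and 2.33% of all genes. This range of numbers was picked with the values known, and Tex24 and Tex29, numbered below it, also fell by at least 2. The other of the 13, Tex47, stood at 0.08 ± 0.11 (adjusted p = 0.629).

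Promoters are shown for the 2 genes with the largest falls, for a pair of X-linked relatives that moved in opposite directions, and for the gene with the largest rise. The RefSeq table (GRCm38.p6) held promoters, from 250 bases before to 50 after a transcript start, for 34 of the 42 genes. Each line gives 1 such promoter on the strand of its gene, 5′ to 3′, with TGACG, read on either strand, in capitals. For Tex35 the table holds 3 starts, of which 1 is shown. Sequences with 1 mismatch to TGACGTCA, which the authors counted as a class of their own, were not searched for and are not marked.
Tex35 (chr1:157108609-157108908, minus strand): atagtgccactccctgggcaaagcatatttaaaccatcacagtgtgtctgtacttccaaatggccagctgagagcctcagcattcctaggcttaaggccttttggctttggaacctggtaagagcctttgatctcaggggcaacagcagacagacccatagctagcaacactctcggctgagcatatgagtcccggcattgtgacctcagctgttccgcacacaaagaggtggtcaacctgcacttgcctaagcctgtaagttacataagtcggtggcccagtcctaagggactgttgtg
Tex50 (chr1:161159265-161159564, minus strand): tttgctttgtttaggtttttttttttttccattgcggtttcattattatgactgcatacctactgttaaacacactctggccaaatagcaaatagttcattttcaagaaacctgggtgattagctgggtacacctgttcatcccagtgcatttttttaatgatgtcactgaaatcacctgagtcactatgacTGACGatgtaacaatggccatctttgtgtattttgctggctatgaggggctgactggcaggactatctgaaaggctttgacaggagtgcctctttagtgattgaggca
Tex13c1 (chrX:43590739-43591038, plus strand): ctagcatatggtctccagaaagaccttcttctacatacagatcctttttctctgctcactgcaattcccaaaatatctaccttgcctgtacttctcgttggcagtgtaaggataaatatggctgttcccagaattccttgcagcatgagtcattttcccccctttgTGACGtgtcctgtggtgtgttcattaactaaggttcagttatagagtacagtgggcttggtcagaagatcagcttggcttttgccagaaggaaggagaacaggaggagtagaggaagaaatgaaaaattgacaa
Tex13b (chrX:140813384-140813683, minus strand): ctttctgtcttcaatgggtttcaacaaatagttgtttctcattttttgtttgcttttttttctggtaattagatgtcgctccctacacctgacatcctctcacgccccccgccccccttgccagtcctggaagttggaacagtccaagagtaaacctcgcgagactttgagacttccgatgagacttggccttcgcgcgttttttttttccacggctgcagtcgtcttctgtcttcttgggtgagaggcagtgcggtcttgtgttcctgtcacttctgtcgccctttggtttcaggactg
Tsga13 (chr6:30915524-30915823, minus strand): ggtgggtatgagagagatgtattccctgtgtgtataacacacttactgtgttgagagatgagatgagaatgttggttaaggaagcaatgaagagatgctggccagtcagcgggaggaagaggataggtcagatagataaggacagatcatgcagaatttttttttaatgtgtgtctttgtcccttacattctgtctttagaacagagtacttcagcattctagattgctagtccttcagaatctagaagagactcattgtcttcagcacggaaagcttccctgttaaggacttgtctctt

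The full palindrome TGACGTCA, which contains TGACG, stood in 0 of the 34 genes' promoters, against 2.03% of the 27025 genes of the table. TGACG on either strand was found in 5 of the 34 genes (14.7%) and in 23% of all genes. Among the 11 genes with a promoter that fell by at least 2, it stood in 3, which were Tex50, 58 bases before the start, Tex13c1, 84 bases before it, and Tex36, at base 30 after it. Of the 10 genes with a promoter that did not pass the test, Tex30 and Tex19.2 held it, and of the 9 that rose 0 did. A match describes the letters of a short window and is not a site of binding.

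Genes of the sperm tail and its microtubules fell and rose. Of the 8 measured genes on the list of axoneme, tail and centrosome 4 fell and 3 rose, against 13.2% and 31.1% of all genes. Their median change was −0.05 and became 0.02 with batch as a fixed block. Tex37 and Tex43 encode proteins inside the microtubules of the sperm axoneme and Tex45 a protein that binds microtubules. The level of Tex37 was 11.01, 10.90, 10.41, 11.01 and 10.77 in WT replicates 1 to 5 and 6.71, 7.52, 7.27, 6.49 and 6.20 in KO replicates 1 to 5. WT replicate 3 and KO replicate 2 came closest to each other, and the change was −3.98 ± 0.22 (adjusted p = 3.6e-09). Tex43 stood at 10.06, 10.38, 10.11, 10.23 and 9.93 in the WT arrays and at 6.65, 7.01, 7.10, 6.58 and 6.65 in the KO arrays, in the same order of replicates. This was a change of −3.35 ± 0.11, with KO values that lay close together. For Tex45 the WT values were 8.73, 8.85, 8.69, 9.14 and 8.79 and the KO values 6.13, 6.56, 7.15, 6.72 and 6.89. It fell by 2.15 ± 0.15, the smallest of the 15 falls of at least 2, and its lowest KO array was KO replicate 1.

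The other changes on this list were small, and none of its 3 rises was called with the arrays centred on the housekeeping list. Tex33, another protein of ciliary and sperm microtubules, fell by 0.26 ± 0.09 (adjusted p = 0.0384), with WT arrays at 10.37 to 10.83 and KO arrays at 10.05 to 10.44, which overlapped. That call ended in 12 of 23 alternative settings, among them batch as a fixed block (−0.12, adjusted p = 0.441). Tcte1, a subunit of the dynein regulatory complex that links axonemal doublets, rose by 0.25 ± 0.08, and Tsga10, a protein of the sperm tail and its neck, by 0.23 ± 0.07. Both calls ended with batch as a fixed block, within batch 2 and within batch 4. Tex26 rose by 0.21 ± 0.08 (adjusted p = 0.0458) and stood at −0.04 within batch 2. With batch as a fixed block it was 0.15 (adjusted p = 0.32) and not called. Tex9 stood at 0.16 ± 0.14 (adjusted p = 0.387).

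The largest falls were of genes known mainly from their expression in testis. On the list of sperm surface, spermatid and testis genes of other or little known function, 14 of 22 measured genes fell and 3 rose. Their median was −2.76, and the shares over all genes were 13.2% and 31.1%. Tex35 was measured at 11.52, 11.56, 11.56, 11.54 and 11.70 in WT replicates 1 to 5 and at 6.35, 7.20, 6.71, 5.85 and 5.99 in KO replicates 1 to 5. It had the largest fall of the 42 genes, 5.15 ± 0.20 in log2 (adjusted p = 9.6e-11), or 35.6-fold. Tex50 lay at 10.30, 10.32, 9.95, 10.24 and 10.35 in WT and at 5.11, 6.04, 5.81, 4.49 and 4.23 in KO. Its change of −5.10 ± 0.29 differed from that of Tex35 by less than its SE, and its KO arrays spread more widely than its WT arrays.

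Tex24 was at 9.60, 10.14, 10.08, 9.87 and 9.89 in the WT arrays and at 4.59, 5.64, 4.77, 4.43 and 4.98 in the KO arrays. It fell by 5.03 ± 0.19, and its KO mean lay at percentile 10.9 of all KO means, the lowest of the 42 genes. Tex48 had WT values of 11.59, 11.51, 11.23, 11.54 and 11.41 and KO values of 6.49, 7.28, 7.43, 5.82 and 5.78. Here KO replicates 2 and 3 stood well above KO replicates 4 and 5, and the change was −4.89 ± 0.28. In Tex29, at 10.47, 10.54, 10.61, 10.76 and 10.14 in WT and 6.34, 7.08, 7.17, 5.41 and 5.80 in KO, these pairs of KO arrays stood apart in the same way, and the change was −4.15 ± 0.29.

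Tex38 encodes a spermatid protein that in mice partners a palmitoyltransferase. Its values were 11.16, 11.00, 11.05, 11.06 and 11.09 in WT and 6.98, 7.14, 6.87, 6.71 and 6.49 in KO. With a change of −4.23 ± 0.10 it had the smallest SE of the 15 falls and the lowest adjusted p of the 42 genes (2.6e-12). Tex55 encodes a protein with a domain of the kind found in regulatory subunits of cAMP-dependent protein kinase. It was at 10.52, 10.39, 10.41, 10.47 and 10.44 in WT and at 7.11, 7.70, 7.04, 6.64 and 6.57 in KO, a change of −3.43 ± 0.17, and its WT arrays lay within a narrow range.

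Tex36 stood at 9.18, 9.60, 9.16, 9.38 and 8.84 in WT and at 5.72, 5.80, 5.93, 5.02 and 5.27 in KO. The highest KO array was KO replicate 3 and the lowest WT array WT replicate 5, and the change was −3.68 ± 0.17. The values of Tex46 were 9.32, 9.14, 9.19, 9.57 and 9.75 in WT and 6.30, 6.51, 6.78, 6.66 and 6.38 in KO, a change of −2.87 ± 0.12. Tex44 was at 10.41, 10.33, 10.11, 10.68 and 10.45 in WT and at 7.84, 8.28, 7.86, 7.45 and 7.24 in KO, and changed by −2.66 ± 0.17. Of the 15 genes, Tex44 kept the highest KO mean, 7.73, at percentile 60.9 of all KO means.

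**Figure D2:**
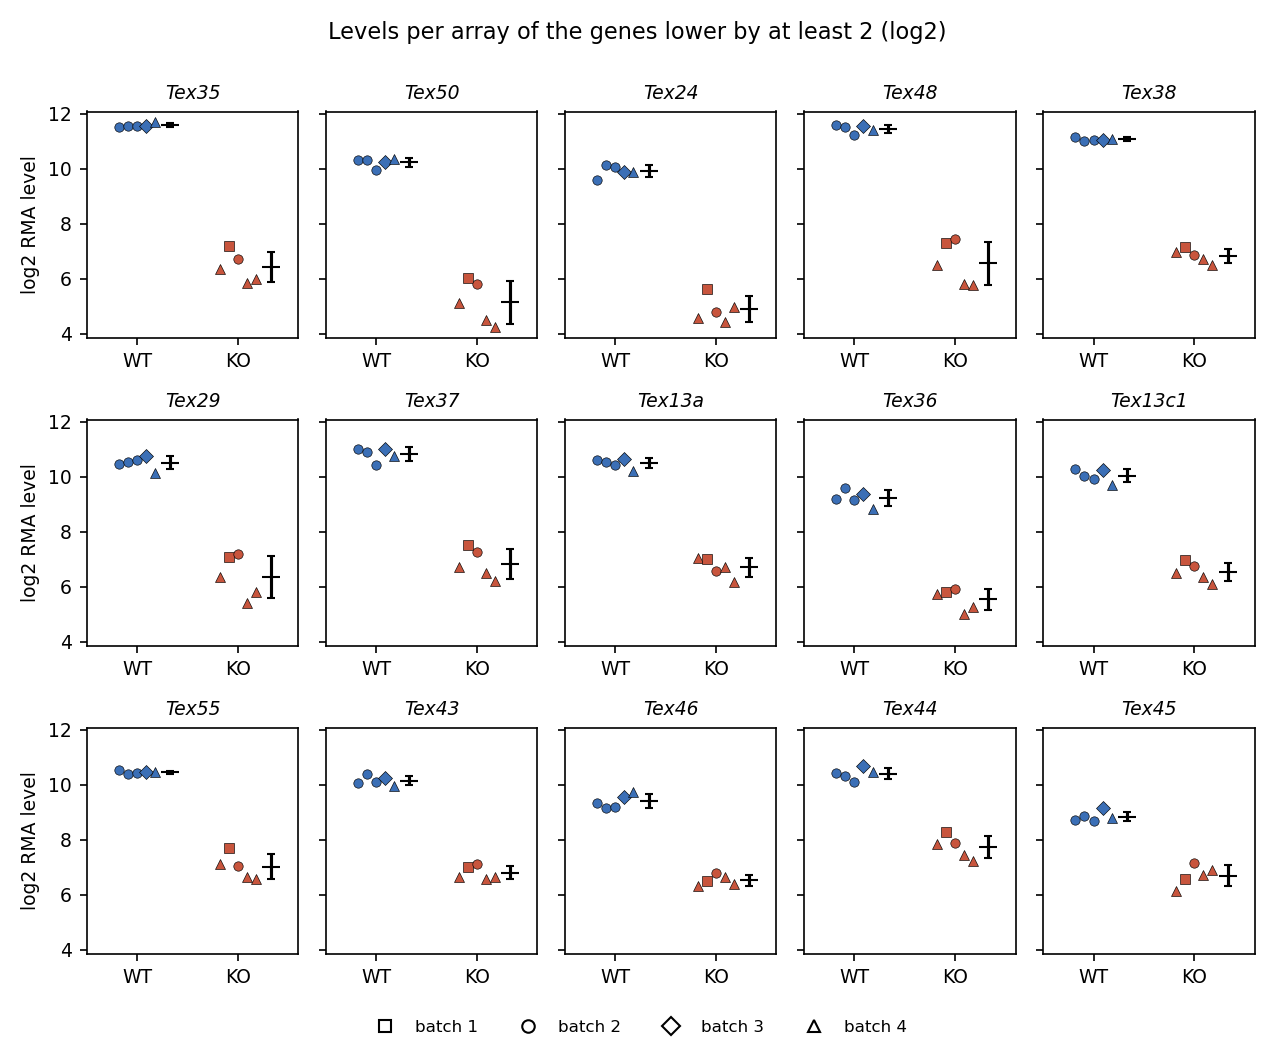
Log2 RMA level (vertical axis) of the 15 largest falls in the 5 WT and 5 KO arrays, with the batch shown by the symbol and a bar for the mean with its SD. No KO array reaches a WT array in any of the 15 genes, and the KO points spread more than the WT points in 14 of them.

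Adjusted p over the 15 genes ran from 2.6e-12 to 8.5e-08. WT means of these 15 genes lay between 8.84 and 11.58, or percentiles 76.1 to 97.9 of all WT means, and their KO means lay between 4.88 and 7.73, or percentiles 10.9 to 60.9. Taking the linear WT level as the whole, the signal left in KO ran from 2.81% for Tex35 to 22.6% for Tex45. How much of the signal at the lowest KO levels is background was not tested. The SD among KO arrays exceeded that among WT arrays in 14 of the 15, with medians of 0.41 and 0.18. In 14 of the 15 the highest KO value came from KO replicate 2 or 3, and in Tex13a from KO replicate 1. The median signal left was 9.29% and 9.42% in KO replicates 2 and 3, 8.65% in KO replicate 1 and 5.40% and 5.00% in KO replicates 4 and 5. The summed level of the elongated spermatid markers was 7102 and 7555 in KO replicates 2 and 3, against 4720, 3731 and 3270 in KO replicates 1, 4 and 5, and its part in the spread of the Tex genes was not tested. The 3 arrays of the lower sums were the KO arrays of batch 4. Within batch 2 the 15 changes had a median of −3.40 and within batch 4 of −3.67, the fall was larger in batch 4 for 14 of the 15, and all 15 were called in each.

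**Figure D3:**
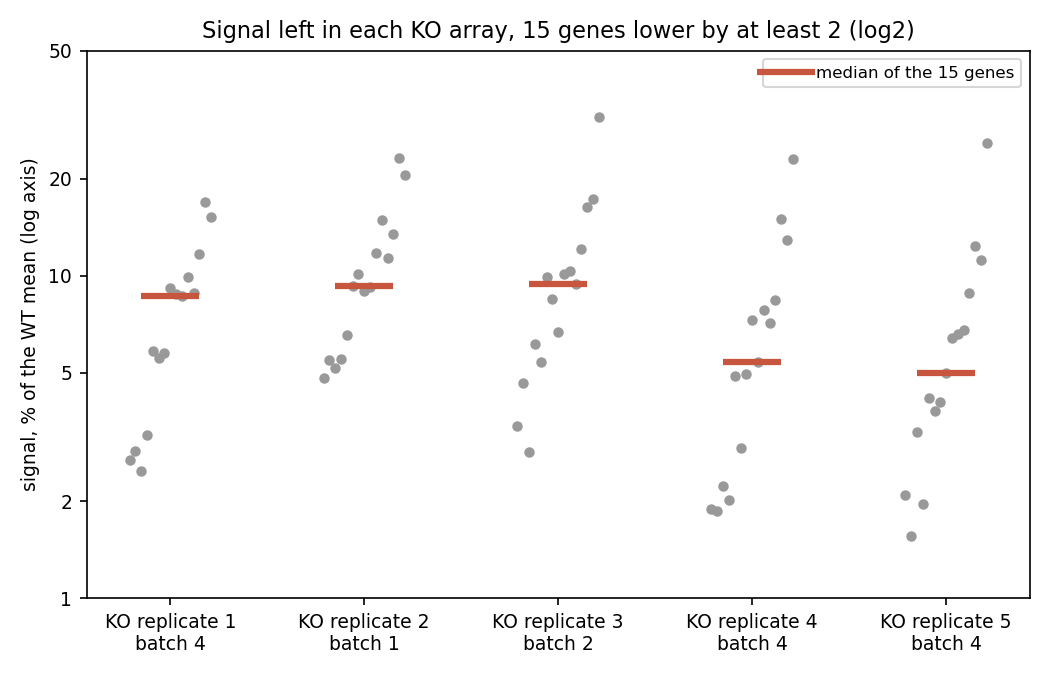
Signal left in each KO array as a percentage of the WT mean (vertical axis, log scale), with the 15 genes as grey points, their median as a red bar and the batch under each array. The medians are 8.65%, 9.29%, 9.42%, 5.40% and 5.00% in KO replicates 1 to 5.

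The X chromosome held 8 of the 42 genes, of which 5 fell, 2 rose and 1 did not pass. Over all genes, on any chromosome, 13.2% fell and 31.1% rose. The Tex13 genes are a family of X-linked germ cell genes, and their members divided. Tex13a was at 10.61, 10.54, 10.40, 10.66 and 10.21 in WT replicates 1 to 5 and at 7.04, 7.01, 6.58, 6.71 and 6.16 in KO replicates 1 to 5, a change of −3.78 ± 0.15. Tex13c1 stood at 10.27, 10.03, 9.93, 10.25 and 9.69 in WT and at 6.50, 6.95, 6.76, 6.37 and 6.11 in KO, and changed by −3.49 ± 0.15. Tex13c3, with a lower WT level of 7.55 ± 0.11 (SD, n = 5), fell to 5.64 ± 0.11 (SD, n = 5), by 1.91 ± 0.07, with arrays that lay close together in both groups.

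Tex13b went the other way. Its values were 6.72, 7.03, 6.60, 6.83 and 6.59 in WT and 7.48, 6.71, 7.27, 7.08 and 7.12 in KO, a rise of 0.38 ± 0.13 (adjusted p = 0.0289), and KO replicate 2 lay among the WT arrays. The rise was 0.49 within batch 2 and 0.64 within batch 4, called in neither. With the arrays centred on the housekeeping list the rise of Tex13b was 0.28 (adjusted p = 0.0775) and not called. Its call held in 15 alternative settings and ended in 8. Whether the change of Tex13b differs from those of its relatives was not tested. Members of a family with like sequence can share probe signal.

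The changes of the other X-linked genes were under 1. Tex28, with the lowest WT level of the 42 genes, fell from 5.90 ± 0.24 to 5.10 ± 0.11 (SD, n = 5 each), and within batch 4 its change of −0.49 was not called. Tsga8, which encodes a nuclear protein of haploid germ cells, fell by 0.34 ± 0.06 (adjusted p = 6.0e-04), from 10.66 to 10.83 in the WT arrays to 10.26 to 10.49 in the KO arrays. The groups did not overlap, and 79.2% of the signal was left. Within batch 4 alone Tsga8 was not called (−0.28). Tex11, a meiotic crossover gene, rose by 0.31 ± 0.11, and Tex16 stood at 0.18 ± 0.11 (adjusted p = 0.227).

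**Figure D4:**
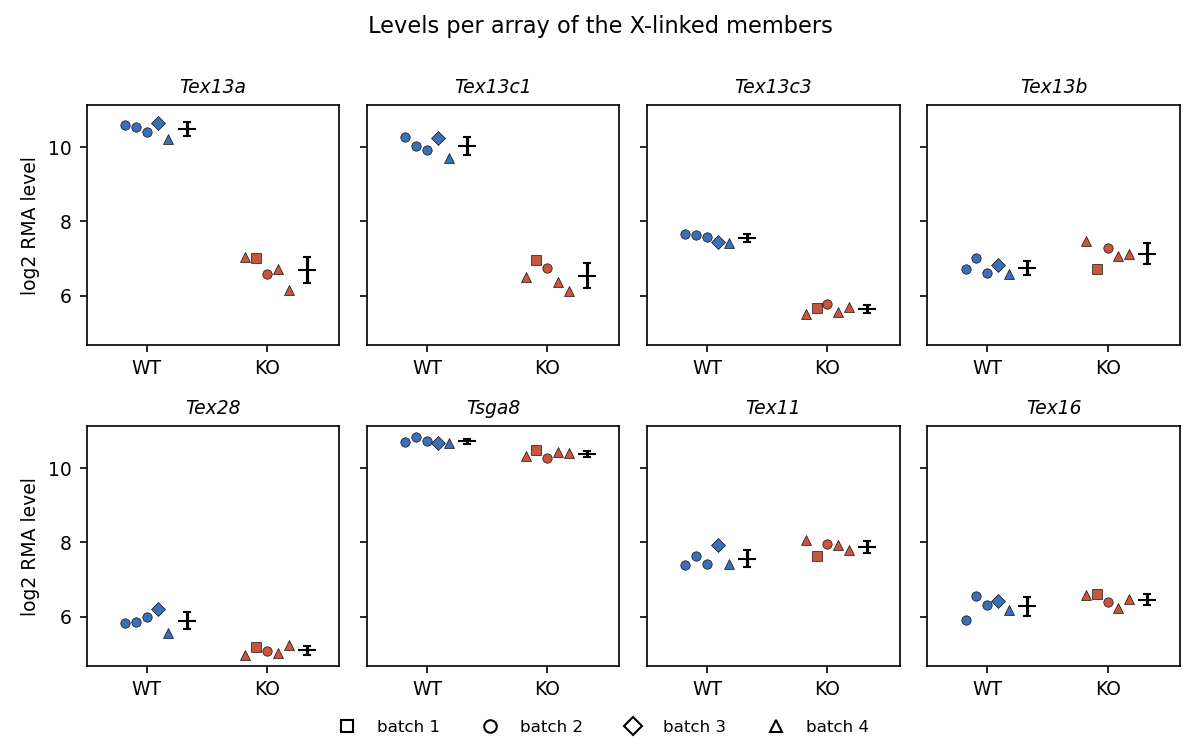
Log2 RMA level (vertical axis) of the 8 X-linked genes in the 5 WT and 5 KO arrays, with the batch shown by the symbol and a bar for the mean with its SD. Tex13a, Tex13c1 and Tex13c3 lie far lower in all KO arrays, Tex13b lies higher in KO with 1 KO array among the WT arrays, and Tsga8 stays above 10 in all arrays.

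Among the 42 genes, 6 serve meiosis, transposon silencing or the bridges between germ cells. Of these 4 rose and 0 fell, against 31.1% and 13.2% of all genes, with a median of 0.28 against 0.05 over all features. Tex14, which keeps the cytoplasmic bridges between dividing germ cells open, rose from 9.65 ± 0.13 to 9.93 ± 0.07 (SD, n = 5 each), by 0.28 ± 0.07 (adjusted p = 0.00562), without overlap. Tex15, needed for silencing of transposons in male germ cells, rose by 0.30 ± 0.09 (adjusted p = 0.0134). Tex12, of the central element of the synaptonemal complex, rose by 0.29 ± 0.10 (adjusted p = 0.0358), as did Tex11. Tex19.1 and Tex19.2, neighbours on chromosome 11 of which the former restrains transposons in mice, stood at −0.02 ± 0.10 and 0.06 ± 0.08. None of these 4 rises was called with the arrays centred on the housekeeping list, where the median of the 6 genes was 0.18, and within batch 4 none was called either. Within batch 2 that of Tex15 alone was. With batch as a fixed block 3 were called, and Tex14 was not (0.25, adjusted p = 0.0629).

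Tsga13 and Tex21 rose most. Tsga13, of little known function, was at 8.68, 8.97, 8.09, 8.75 and 8.58 in WT replicates 1 to 5 and at 10.20, 10.08, 10.20, 10.22 and 10.16 in KO replicates 1 to 5. The rise of 1.56 ± 0.12 (adjusted p = 2.6e-07) was 2.95-fold, the KO arrays lay within a narrow range, and WT replicate 3 was the lowest array. Tex21 stood at 10.97, 11.20, 10.87, 11.00 and 10.76 in WT and at 11.70, 11.86, 11.74, 11.80 and 11.74 in KO, a rise of 0.81 ± 0.08 (adjusted p = 1.9e-06), again without overlap. The rises of both were called in batch 2 (1.62 and 0.72) and in batch 4 (1.62 and 0.99).

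Of the 5 measured genes used by most cell types 2 rose slightly, against 31.1% of all genes, and 3 did not pass. Tex10, which acts in ribosome production and in pluripotent cells, was at 10.99, 11.04, 11.18, 11.14 and 10.90 in WT and at 11.44, 11.64, 11.34, 11.40 and 11.36 in KO, a rise of 0.39 ± 0.07. Tex261, a homologue of a yeast protein of export from the endoplasmic reticulum, was at 9.98, 10.06, 10.12, 9.87 and 10.11 in WT and at 10.34, 10.22, 10.42, 10.59 and 10.51 in KO, a rise of 0.39 ± 0.08. The groups did not overlap for either gene. Within batch 4 Tex10 was called and Tex261 was not, and within batch 2 neither was. Tex264, a receptor for the autophagy of the endoplasmic reticulum, stood at 0.28 ± 0.13 (adjusted p = 0.0959), Tex2 at 0.15 ± 0.06 (adjusted p = 0.0543) and Tex30 at 0.06 ± 0.07 (adjusted p = 0.528).

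Among genes of the testis with other roles, 5 did not pass, Tex16 among them. Tex101, a germ cell surface protein needed for fertile sperm in mice, was at 10.23 ± 0.12 in WT and 10.30 ± 0.16 in KO (SD, n = 5 each), with a change of 0.08 ± 0.08 (adjusted p = 0.504). Tex22 stood at 0.19 ± 0.10 (adjusted p = 0.152), Tex47 is given above, and Tcte2 stood at −0.24 ± 0.17 (adjusted p = 0.3). For Tcte2 the values were 10.39, 10.40, 10.46, 9.83 and 10.01 in WT and 9.83, 10.26, 9.69, 10.49 and 9.61 in KO, a wide spread in both groups, and its SE was the largest among genes that did not pass.

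**Figure D5:**
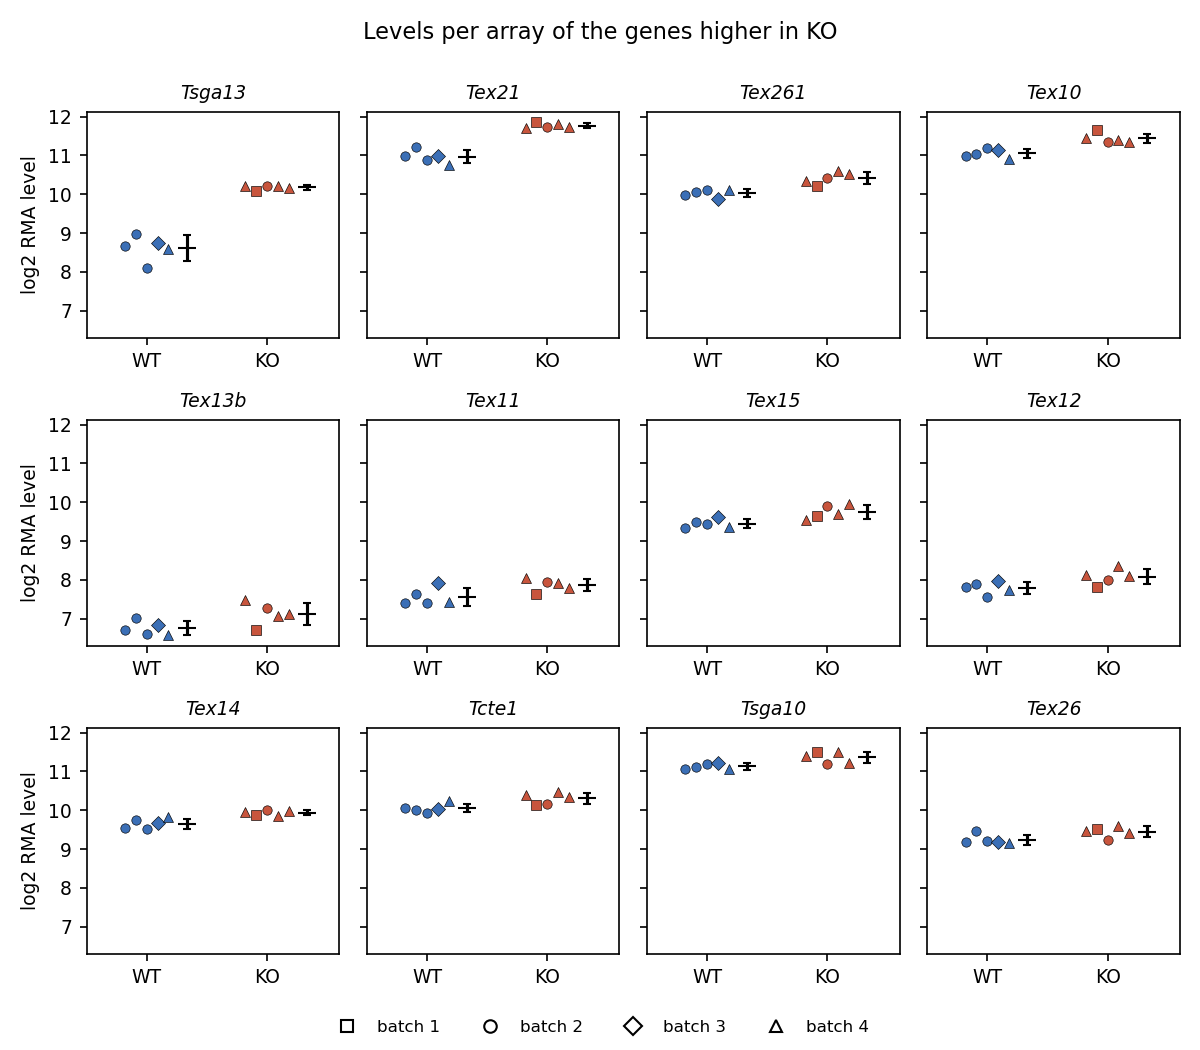
Log2 RMA level (vertical axis) of the 12 genes that rose, in the 5 WT and 5 KO arrays, with the batch shown by the symbol and a bar for the mean with its SD. The groups are apart in Tsga13, Tex21, Tex261, Tex10 and Tex14 and overlap in the other 7.

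All 16 falls of at least 1 stayed called in all 23 alternative settings, and of the 12 rises those of Tsga13 and Tex21 did. The mean over the features of each gene is among the 23, but with 1 feature per member it had nothing to average. The minimum change of 1 is not among these 23, and under it Tsga13 was the only rise. The count of rises was 7 without KO replicate 1, KO replicate 4, WT replicate 1 or WT replicate 3, 4 within batch 2 and 3 within batch 4. Those batches hold 4 arrays each, and over all genes the rises there numbered 2208 and 1902 in place of 6106. With batch as a random block 12 of the 42 rose, and as a fixed block 8.

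Lists of the genes of several complexes or pathways were read next, in which Tcte1, Tex12, Tex14, Tex10 and Tex264 are counted again. The counts below stand beside 13.2% of all genes that fell and 31.1% that rose (12.4% and 27.9% of all features). All 9 measured genes of the dynein regulatory complex (10 listed) rose, by 0.24 to 0.53, with a median of 0.38, Ccdc65 with the largest rise. With the housekeeping centring 6 of them were called, with batch as a fixed block 7, within batch 2 only 1 and within batch 4 only 4. Of 6 measured synaptonemal complex genes 4 rose and 1 fell. The fall was that of Syce2 (−1.69 ± 0.10), another central element gene beside Tex12, and the largest rise that of Sycp3 (0.36 ± 0.07). In each of these settings 1 gene of this list was called lower, and the rises numbered 1 with the housekeeping centring, 2 with the fixed block and 0 within either batch. Of 8 genes of the bridge, 5 rose and Cep55, which TEX14 binds, fell by 0.54 ± 0.08, with Kif23 the largest rise (0.49 ± 0.07). Here too 1 gene was called lower in each setting, and the rises numbered 3 with the housekeeping centring, 3 with the fixed block, 0 within batch 2 and 1 within batch 4.

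The sperm calcium channel CatSper holds none of the 42 genes and was listed for Catsperz, once named Tex40. Of its 8 measured genes 3 fell and 4 rose. In the same settings the falls numbered 3, and the rises numbered 1, 2, 0 and 1. Catsperz was named after its value was seen, and it rose by 0.23 ± 0.07. The pore subunit Catsper3 fell by 5.44 ± 0.19, and the largest rise was that of Efcab9 (0.33 ± 0.07). Axonemal dynein light chain genes, a list that also holds none of the 42 genes, were lower in 2 and higher in 3 of 8. These shares stand beside 13.2% and 31.1% of all genes. The largest changes were those of Dynll2 (−1.96 ± 0.08) and Dnal1 (0.57 ± 0.08). With the housekeeping centring and with batch as a fixed block 2 fell and 2 rose. Among 7 receptors of the autophagy of the endoplasmic reticulum, Tex264 included, 3 fell and 2 rose, with the largest changes in Atl3 (−3.09 ± 0.07) and Sec62 (0.32 ± 0.07). Within either batch 2 of them fell and 1 rose. In the complex of PELP1, TEX10 and WDR18, 3 of 7 genes rose, against 31.1% of all genes, and 0 fell. Tex10 had the largest rise. The rises numbered 1 with the housekeeping centring and 1 within either batch.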

How the data were processed

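The deposited table holds log2 expression levels, which the authors made with the RMA method of the Bioconductor package XPS, using core probe sets summarised to transcripts and a background read from antigenomic probes. Package version and genome build are not given in the sources used here. The table has 35557 features, of which 9868 hold no value, and all of the other 25689 (2.74 to 14.57) were used. Symbols are those that GEO gives for the platform, and for comparisons over all genes were updated through RefSeq (GRCm38.p6): 20777 features had 1 symbol and 20696 of these matched. Where several features named a gene, that of highest mean stood for it. All 42 genes matched RefSeq, and the same 42 were found by updated symbols.

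The genotypes were compared by a two-sided limma fit (version 3.58.1, R 4.3.3) without covariates, and p-values were adjusted over all features by Benjamini-Hochberg. The fit was also run on simulated data with independent normal noise and no batches. That run does not test the calls under the batches of these arrays. The number of arrays limits the precision, with a median SE of 0.08 in log2. Replicate numbers follow the order of the samples and only name the mice. Members, lists and alternatives were chosen with earlier results of these data known. Every member is named, with values per array for falls of at least 2 in log2 and the 5 largest rises. From each list of partners the largest called change in each direction is named. Alternatives were other scalings (quantile normalisation once more, array medians, 9 measured housekeeping genes with and without B2m), batch as a fixed or random block, batch 2 or 4 alone, single arrays left out, KO replicates 2 and 3 left out, weights per array, eBayes with trend and robust variance, a filter on the dimmest 25% of features, a minimum change of 1 and a mean over the features of each gene. Within batch 2 the KO group, and within batch 4 the WT group, is 1 array, taken to vary like the other arrays.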

Additional observations from a re-analysis of the deposited data

Results flagged for a closer look

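Each group of 5 arrays was searched for a highest or lowest array that stood apart from the other 4 by more than 0.71 of the group's range. Among 86 groups of the 42 genes and Crem, 5 were found, and chance gives about 1 in 20. Tex19.1 was at 6.98 in KO replicate 2, against 7.21 to 7.25 in the other KO arrays. Tex264 was at 9.84 in KO replicate 4, against 9.35 to 9.49. Among WT arrays, Tex26 was at 9.45 in WT replicate 2, against 9.14 to 9.20 in the others, and Tex35 was at 11.70 in WT replicate 5, against 11.52 to 11.56. Tex50 was at 9.95 in WT replicate 3, against 10.24 to 10.35. Leaving out the array in question left the falls of Tex35 and Tex50 called.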

How the results depend on the processing

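The count of genes that fell was 19 over all arrays, 18 to 19 with single arrays left out and 16 to 19 under the other alternatives. The count of rises, 12 over all arrays, was 7 to 12 with single arrays left out, 4 with the housekeeping centring, 4 in batch 2, 3 in batch 4, 1 with a minimum change of 1 and 8 to 13 under the other alternatives. The cause was not tested, except that batch 2 and batch 4 hold 4 arrays each and the minimum change removes small rises by its construction. Tex26, higher over all arrays, stood at −0.040 in batch 2 (adjusted p = 0.877), the one called change among the 42 that turned its sign. Of the 3 falls of less than 1, Tex28 and Tsga8 lost the call in batch 4 alone and Tex33 in 12 of 23 settings. A gene that did not pass over all arrays was given no direction; of these 11, Tcte2 was called in batch 2 (−0.72), Tex264 in batch 2 (0.42) and without WT replicate 5 (0.39), Tex2 in 6 settings (0.15 to 0.20), and the other 8 in none. Removal of the lowest 25% of features removed Tex28 and left 41 genes. No paired analysis was possible because the labels carry no replicate numbers that the genotypes share.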
